A study of Homo sapiens with 2 samples.

Results

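The centromere and kinetochore genes examined here are a fixed list of 36 protein-coding genes, set against all 20033 protein-coding genes with a place on the assembled chromosomes in RefSeq of GRCh38.p14. A gene was counted as having a NeuroD1 peak when a called peak overlapped the gene body, or lay up to 3 kb from either end of it, by at least 1 bp. The list was chosen by gene function but also selected on a measured value, the fold enrichment of the CENPU peak, known to be among the highest of the library. The counting rule uses the peak calls themselves, so the number of members with a peak is a description and was not tested. By symbol, 35 members matched RefSeq, and CENPJ matched by synonym under its present symbol CPAP.

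NeuroD1 is a basic helix-loop-helix transcription factor of neuronal and endocrine cells that binds E-box hexamers together with an E-protein. NeuroD1 ChIP-seq was carried out in the MYCN-amplified neuroblastoma cell line IMR-32, labelled as wild type and with no treatment named. There is 1 NeuroD1 ChIP library in the series and 1 library of input chromatin from the same cells, which was not analysed here. There was no replicate, so every value describes this library alone. The sample label gives a NeuroD1 antibody, whereas the ChIP-seq text of the supplement names an H3K27Ac antibody, and the peak list was used as labelled. The paper reports that NeuroD1 motifs were enriched at its NeuroD1 binding sites in these cells, and lists H3K27Ac as a separate CUT&Tag dataset. A peak list holds no expression values, so the identity of the cells could not be checked against marker genes.

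The kinetochore is the protein assembly on which spindle microtubules pull each chromosome in mitosis. It is built on centromeric nucleosomes that carry the histone variant CENP-A, on which the constitutive centromere-associated network (CCAN) sits through the cell cycle. In mitosis the CCAN recruits the KMN network, made of KNL1 and the Mis12 and Ndc80 complexes, which binds the microtubules, and the spindle assembly checkpoint proteins delay anaphase while any kinetochore is unattached. Many of these genes are transcribed periodically and are highest before mitosis, and their promoters often hold CCAAT boxes, bound by NF-Y, and cell cycle genes homology regions (CHR).

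The library held 6183 peaks with a median fold enrichment of 6.79 and an upper quartile of 8.68. Fold enrichment compares the ChIP pileup at the summit with the background expected there, after adding 1 to both. The sequencing depth of the library is unknown. The number of ChIP reads over each summit was worked out from these deposited values, and had a median of 17 over all peaks, from 8 to 272. Intervals given with fold enrichments and reads are 95% exact Poisson intervals of the solved reads, with the background held fixed, and cover counting error only.

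NeuroD1 peaks were called at 13 of the 36 members (36.1%), against 21.4% of all protein-coding genes. Of protein-coding genes of like length, taken as the mean share over the length class of each member with 10 classes of equal size, 22.4% had a peak. Without CENPU, for which the list was partly chosen, 12 of 35 genes had a peak (34.3%). The median length of the members was 31.8 kb, with a range from 2.89 to 417 kb, and that of all protein-coding genes was 24.1 kb. The 13 genes held 17 peaks, since 12 of them had a single peak and MAD1L1 had 5. For 8 of the 13 genes the only or highest peak also lay within 3 kb of another protein-coding gene. Over the library, 18.8% of the 4568 peaks within 3 kb of a protein-coding gene lay within 3 kb of 2 or more. The share of members with a peak thus includes many peaks that may belong to a neighbour. No member lay near the 3 kb limit. Among counted peaks, the farthest from its gene was 357 bp from MAD1L1, and the member without a peak that came closest was CENPB, 25.1 kb from the nearest peak.

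By role, 6 of the 14 CCAN genes on the list (42.9%) had a peak, against 23.5% of genes of like length. So did 4 of the 10 KMN genes (40.0%), against 20.7%. The CCAN genes CENPS and ITGB3BP are not among these 14. They were counted with the other kinetochore genes, where ITGB3BP had a peak and CENPS had none. Of the 7 checkpoint genes 1 had a peak (14.3%), against 24.0%. CENPA had a peak and CENPB, which codes for the protein that binds a short box in alpha satellite DNA, had none. Among the 3 outer corona and centriole genes, CENPF had a peak while CENPE and CENPJ had none. These groups are small and the differences between them were not tested.

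**Figure D1:**
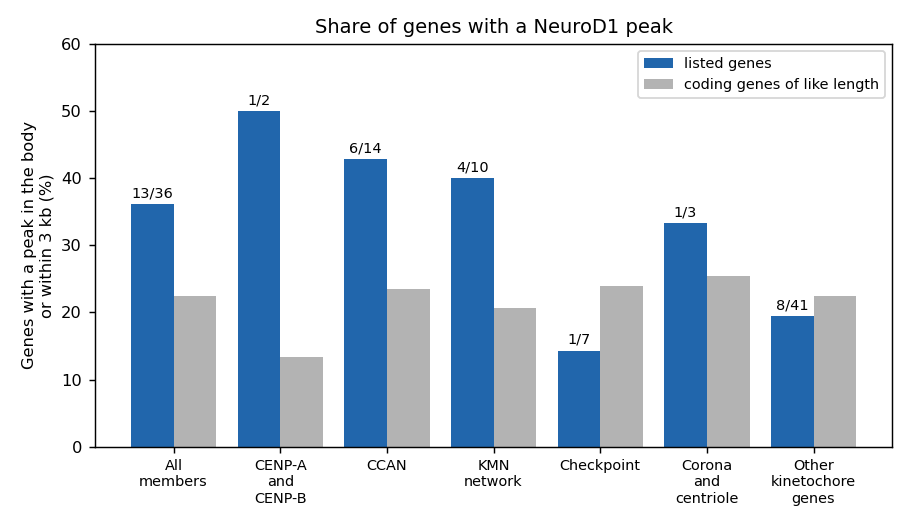
Percent of genes with a NeuroD1 peak in the body or within 3 kb, for all members, for each role and for the other kinetochore genes (blue, with the number of genes with a peak over the number in the group), beside the share of protein-coding genes of like length (grey). The bars of the listed CCAN and KMN genes stand at 42.9% and 40.0%, and that of the checkpoint genes stands at 14.3%, below the grey bar.

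Within the named subcomplexes, peaks were spread over some subunits and not others. In the Ndc80 complex, NUF2 and SPC24 had a peak and their partners NDC80 and SPC25 had none. In the Mis12 complex, NSL1 and PMF1 had a peak and DSN1 and MIS12 had none. In the CCAN, CENPU and CENPP had a peak while CENPO and CENPQ, of the same subcomplex, had none. CENPK and CENPM had a peak while CENPH and CENPI had none, and CENPT and CENPX had a peak while CENPW had none. No peak was called at CENPC, CENPL or CENPN.

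The peak at CENPU, for which the list was partly chosen, was by far the highest among the members. CENPU codes for a CCAN subunit that serves as a docking site for the mitotic kinase PLK1. The peak lay at chr4:184734049-184734466 and was 418 bp wide, with a fold enrichment of 45.8 (interval 37.1 to 55.9) and a −log10 q of 136. At the summit stood 94 ChIP reads (76.0 to 115) above an implied background of 1.04. This is the lowest background in the list, just above the floor set when the reads were solved. It ranked 5 of 6183 by fold enrichment, 6 by −log10 q and 103 by ChIP reads. The summit lay 161 bp upstream of the CENPU start, and no other gene lay within 3 kb of the peak.

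CENPX had the second-highest peak of the list. It codes for a histone-fold protein that works at the centromere with CENP-S, CENP-T and CENP-W, and in DNA repair with FANCM. Its peak at chr17:82022801-82023417 was the widest among the members at 617 bp, with a fold enrichment of 12.5 (9.34 to 16.4), a −log10 q of 36.8 and 50 reads (37.1 to 65.9) at the summit, where the background was 3.0. The summit was 192 bp upstream of CENPX and 235 bp upstream of LRRC45, which is transcribed in the other direction. The interval of CENPX overlapped those of the next genes. The list was partly chosen for the height of the CENPU peak, so the distance of CENPU from the other members is no result.

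CENPA, the gene of the centromeric histone, had a peak at chr2:26785716-26786093 with a fold enrichment of 9.79 (6.47 to 14.3), a −log10 q of 16.3 and a summit of 25 reads (16.2 to 36.9). The summit lay 157 bp upstream of its start and no other gene lay within 3 kb. PMF1 codes for a subunit of the Mis12 complex. Its peak at chr1:156212843-156213231 had a fold enrichment of 8.83 (5.88 to 12.8) and a −log10 q of 15.2, with the summit 49 bp upstream of the start. The readthrough gene PMF1-BGLAP begins at nearly the same place, and the end of SLC25A44 lay 47 bp from the peak.

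The other promoter peaks of members were of ordinary height. CENPK, a CCAN subunit, had a fold enrichment of 7.23 (4.18 to 11.8) with a summit 30 bp upstream of its start. NSL1, of the Mis12 complex, had 6.21 (3.82 to 9.63) with a summit 103 bp upstream. SPC24 and NUF2 code for subunits of the Ndc80 complex, SPC24 at the end that faces the centromere and NUF2 at the end that binds microtubules. At SPC24 the fold enrichment was 5.94 (3.36 to 9.85), 126 bp upstream, and the peak began 58 bp outside the gene. At NUF2 it was 5.30 (3.53 to 7.67), 68 bp upstream, with 26 ChIP reads and a background of 4.0, the highest background among the member peaks. CENPP, the longest of the CCAN genes, had the lowest value, 4.58 (2.59 to 7.60), with a −log10 q of 3.23. Its summit lay 186 bp upstream of the second of 3 CENPP starts in RefSeq.

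In CENPT, CENPF and MAD1L1 no peak was placed at a known start of the member, and for CENPM no start was available. At CENPT, the CCAN subunit that binds the Ndc80 complex, the fold enrichment was 5.79 (3.14 to 9.97) and the −log10 q 4.24. This summit lay 775 bp inside CENPT but 15 bp upstream of the start of NUTF2, the gene of a nuclear transport factor. At CENPM the peak (7.23-fold, 4.18 to 11.8) lay inside the gene, with its summit 235 bp from an end of it, and also overlapped SMIM45. No promoter window was found for CENPM, so the distance to its start is not given. CENPF, a large protein of the outer corona, had a peak of 5.64-fold (3.63 to 8.41) in the gene body, 33.5 kb downstream of the start.

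MAD1L1, whose protein brings MAD2 to unattached kinetochores, was the only checkpoint gene of the list with a peak, and none of its 5 peaks was near its start. It is the longest member, at 417 kb. In the longest of the 10 length classes, to which it belongs, 36.2% of protein-coding genes had at least 1 peak and 1.45% had 5 or more. The highest MAD1L1 peak (9.33-fold, 5.94 to 14, −log10 q 13.5) lay at chr7:1815240-1815438, beyond the far end of the gene, and the next along the chromosome (6.36-fold) lay 48 bp beyond that end. The other 3 had fold enrichments of 5.35, 5.39 and 8.02, and lay 202, 128 and 123 kb downstream of the start.

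Over all 17 member peaks, 5 of them at MAD1L1, the median fold enrichment was 6.36, below the 6.79 of all peaks. It was 7.23 over the highest peak of each of the 13 genes, a choice that raises it. Of these 13 peaks, 7 lay above the median of all peaks and 5 above their upper quartile. Apart from CENPU, the intervals of most member peaks overlapped each other, so their order is not resolved at this depth. The lowest and the highest number of reads at a member summit were 11 and 94.

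**Figure D2:**
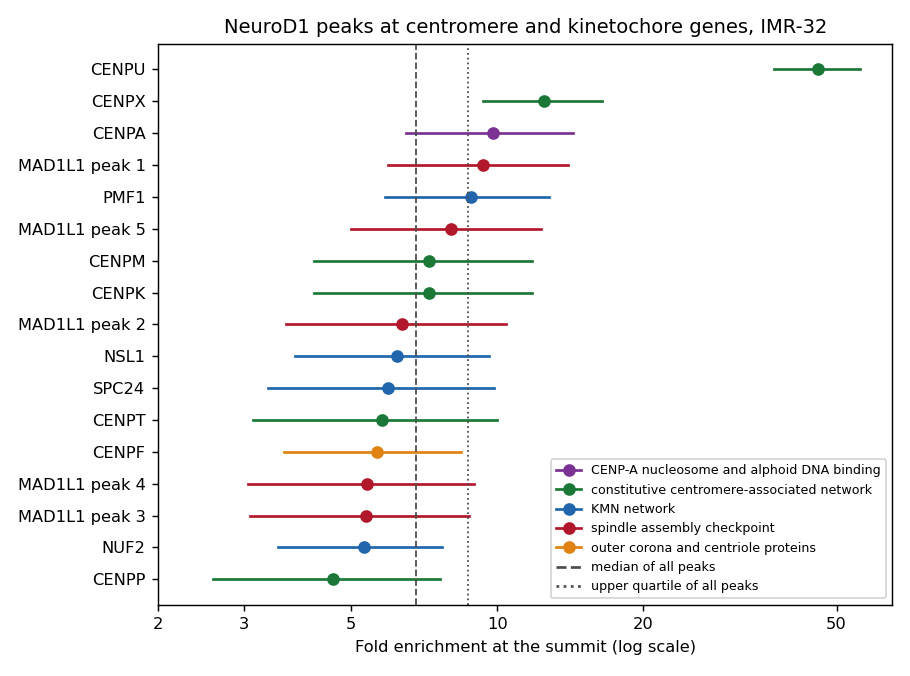
Fold enrichment at the summit (log scale) of the 17 peaks at the members, with 95% Poisson intervals of the reads as horizontal lines, coloured by role, with the median (6.79) and upper quartile (8.68) of all peaks as vertical lines. CENPU, for which the list was partly chosen, stands alone at 45.8, and the MAD1L1 peaks are numbered along chromosome 7.

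Where RefSeq gives a promoter window, from 250 bases before the start to 50 after it, 9 of 30 members had a peak over a window (30%), against 13.7% of the protein-coding genes with a window. This count was chosen after the data were seen. All 9 summits lay upstream of a start, from 192 to 30 bp. Over the library, 2333 summits lay within 1 kb of a protein-coding start, at a median of 80 bp upstream (quartiles 153 and 21 bp upstream), and 62.8% of them lay within 200 bp upstream. Of the 9 member summits 5 lay between these quartiles, and those of CENPA, CENPU, CENPP and CENPX lay further upstream.

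Several of these promoters are shared with another gene. A divergent start, that is, a start of another protein-coding gene on the opposite strand up to 1 kb upstream, was found for 11 of the 30 members with a window (36.7%), against 12.3% of all protein-coding genes with a window. A peak over the window was present at 5 of these 11 (45.5%), against 23.2% of all genes with a divergent start. They were CENPK with PPWD1 (128 bp between the starts), CENPP with NOL8 (118 bp from the first CENPP start, the peak lying over the window of the second), CENPX with LRRC45 (427 bp), NSL1 with TATDN3 (117 bp) and NUF2 with RGS5 (219 bp). The 6 divergent pairs without a peak over the window were CENPB with CDC25B, CENPN with CMC2, CENPO with PTRHD1, CENPQ with MMUT, MIS12 with DERL2 and NDC80 with METTL4. Of the 19 members without a divergent start 4 had a peak over the window (21.1%), against 12.3% of such genes. At a shared promoter a peak cannot be assigned to either gene. Counting each peak only for the protein-coding gene whose body lay nearest to the summit left 11 of 36 members (30.6%), against 17.8% of all protein-coding genes. The NSL1 peak went to another gene, and the PMF1 peak to the readthrough gene PMF1-BGLAP. CENPT was kept, since its body holds the summit, although the start of NUTF2 lay nearer to the summit than that of CENPT.

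The E-box is the hexamer that NeuroD1 is known to bind, and its letters were absent from 5 of the 9 windows. Of all protein-coding windows with a peak 56.2% held an E-box, so such absence is not particular to the members. The sequences under the member peaks are shown here. They are RefSeq sequences of GRCh38.p14 for the 8 members with the highest fold enrichment over a promoter window, written 5′ to 3′ along the gene, 250 bases before to 50 after the start. Capitals mark E-boxes (CANNTG, which reads the same on both strands as a pattern) and CCAAT boxes (CCAAT or its reverse complement ATTGG). The windows are chr4:184734047-184734346 on the minus strand for CENPU, chr17:82022829-82023128 on the minus strand for CENPX, chr1:156212757-156213056 on the plus strand for PMF1, chr5:65563119-65563418 on the minus strand for CENPK and chr19:11155733-11156032 on the minus strand for SPC24, in which no E-box was found.
CENPU: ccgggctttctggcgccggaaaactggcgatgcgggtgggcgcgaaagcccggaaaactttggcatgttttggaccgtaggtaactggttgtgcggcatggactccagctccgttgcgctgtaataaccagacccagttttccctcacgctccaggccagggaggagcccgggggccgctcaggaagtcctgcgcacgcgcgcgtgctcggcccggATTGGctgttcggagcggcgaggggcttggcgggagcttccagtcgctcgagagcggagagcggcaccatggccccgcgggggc
CENPX: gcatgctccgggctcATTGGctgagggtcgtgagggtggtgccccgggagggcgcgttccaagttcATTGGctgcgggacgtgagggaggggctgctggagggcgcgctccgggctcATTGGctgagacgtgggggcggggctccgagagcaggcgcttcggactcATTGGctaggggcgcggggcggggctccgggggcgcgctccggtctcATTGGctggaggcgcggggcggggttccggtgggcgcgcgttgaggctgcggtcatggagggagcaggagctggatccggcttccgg
PMF1: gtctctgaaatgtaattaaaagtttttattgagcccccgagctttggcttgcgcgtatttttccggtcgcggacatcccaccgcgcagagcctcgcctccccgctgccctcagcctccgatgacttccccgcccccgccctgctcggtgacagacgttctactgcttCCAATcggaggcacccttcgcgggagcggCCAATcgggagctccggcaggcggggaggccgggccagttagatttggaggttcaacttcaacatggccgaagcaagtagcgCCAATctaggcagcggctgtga
CENPK: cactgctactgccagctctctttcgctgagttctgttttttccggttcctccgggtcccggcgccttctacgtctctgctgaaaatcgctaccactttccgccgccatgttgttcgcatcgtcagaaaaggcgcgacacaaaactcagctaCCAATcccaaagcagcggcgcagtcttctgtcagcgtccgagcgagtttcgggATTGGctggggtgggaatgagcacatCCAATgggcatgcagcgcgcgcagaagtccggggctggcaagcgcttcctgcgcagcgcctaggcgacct
SPC24: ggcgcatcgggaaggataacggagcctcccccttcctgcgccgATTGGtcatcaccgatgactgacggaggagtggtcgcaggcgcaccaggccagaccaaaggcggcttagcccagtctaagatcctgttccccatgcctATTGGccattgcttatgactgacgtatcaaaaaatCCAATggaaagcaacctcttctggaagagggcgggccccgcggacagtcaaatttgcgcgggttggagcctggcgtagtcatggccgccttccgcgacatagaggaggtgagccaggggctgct

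The 3 windows of this set that hold an E-box are chr2:26785806-26786105 on the plus strand for CENPA, chr1:212791728-212792027 on the minus strand for NSL1 and chr1:163321704-163322003 on the plus strand for NUF2.
CENPA: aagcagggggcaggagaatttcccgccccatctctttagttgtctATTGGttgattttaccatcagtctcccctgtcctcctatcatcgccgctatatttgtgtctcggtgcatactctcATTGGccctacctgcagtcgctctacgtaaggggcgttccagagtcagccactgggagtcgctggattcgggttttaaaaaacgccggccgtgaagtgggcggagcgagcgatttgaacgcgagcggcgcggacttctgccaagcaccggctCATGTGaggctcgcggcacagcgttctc
NSL1: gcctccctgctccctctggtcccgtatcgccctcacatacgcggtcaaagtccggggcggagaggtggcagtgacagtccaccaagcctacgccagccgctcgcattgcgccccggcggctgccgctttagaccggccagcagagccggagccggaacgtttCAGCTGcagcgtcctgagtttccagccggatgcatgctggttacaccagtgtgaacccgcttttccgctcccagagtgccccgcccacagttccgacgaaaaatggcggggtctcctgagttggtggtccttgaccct
NUF2: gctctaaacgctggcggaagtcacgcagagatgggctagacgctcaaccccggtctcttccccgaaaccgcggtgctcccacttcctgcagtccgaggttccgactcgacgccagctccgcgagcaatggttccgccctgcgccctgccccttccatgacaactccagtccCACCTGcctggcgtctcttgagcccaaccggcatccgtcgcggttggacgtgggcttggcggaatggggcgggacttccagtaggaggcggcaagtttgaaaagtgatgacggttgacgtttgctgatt

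At CENPU 298 of the 300 window bases lay inside the called peak, and the only capitals are a single ATTGG, 129 bp from the summit. At CENPX the whole window lay inside the peak and held 5 ATTGG words, the nearest 10 bp from the summit. The nearest CCAAT box to the summit was 3 bp away at PMF1, 12 bp at CENPK, 19 bp at SPC24 and 29 bp at CENPA. The single E-boxes of NUF2 (CACCTG) and NSL1 (CAGCTG) lay 8.5 and 17.5 bp from the summit, counted from the centre of the word, and neither window held a CCAAT box. The E-box of CENPA (CATGTG) lay 182 bp from the summit, and that of the CENPP window (CAGCTG, sequence not shown) lay 196 bp from it. The parts of the CENPU and CENPX peaks further upstream were not read, since no genome sequence was used here.

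Counted over both strands, an E-box was present in 4 of the 9 member windows with a peak (44.4%), in 56.2% of the 2454 protein-coding windows with a peak and in 65.1% of all 22198 protein-coding windows. The NeuroD1-type E-box CAGATG, a subset of CANNTG, was in none of the 9, in 8.23% of windows with a peak and in 12.2% of all windows. CAGCTG was in 2 of the 9, against 18.7% of windows with a peak and 18.0% of all, and the MYC-type E-box CACGTG was in none of the 9, against 10.6% and 8.34%. The CCAAT box was in 6 of the 9 (66.7%), in 49.8% of windows with a peak, in 32.8% of windows without a peak and in 34.7% of all. Member windows without a peak held it in 14 of 25 (56.0%). The median GC content was 68.0% in protein-coding windows with a peak and 61.3% in those without, and its part in the difference between their shares was not tested. In the 9 member windows it was 62.3%, equal to that of all protein-coding windows.

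In the 2041 protein-coding windows that held a summit, 52.4% had a CCAAT box, at a median of 26 bp from the summit where present, and 57.0% had an E-box, at a median of 55 bp. CCAAT boxes stood at a median of 92 bp upstream of the start in windows without a peak, close to where summits fall, so their nearness to summits and the shared place upstream of the start cannot be told apart here. A match of letters is not a bound site, and a window with no match says only that the letters are not in these 300 bases.

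**Figure D3:**
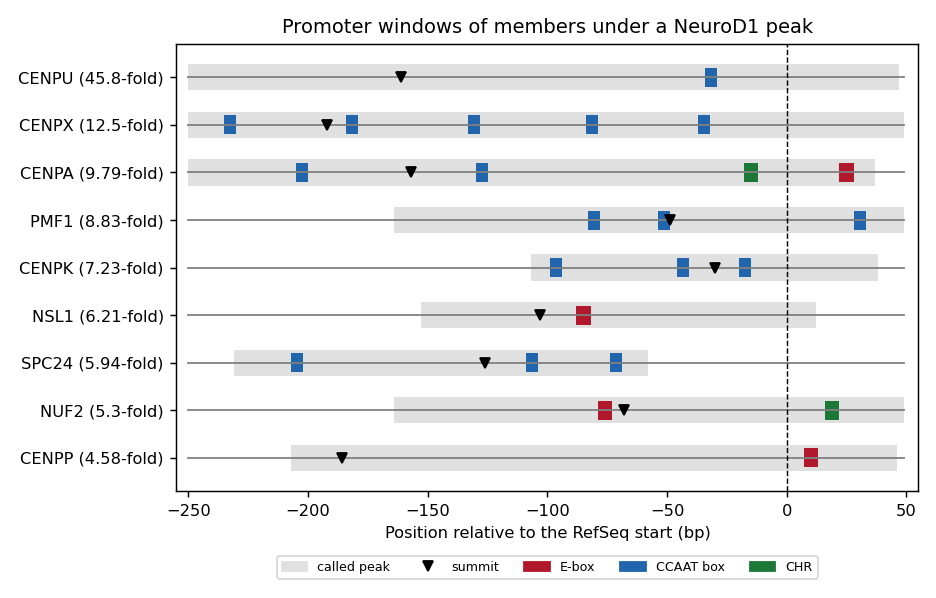
Promoter windows of the 9 members with a peak over them, in order of fold enrichment, as distance from the RefSeq start (bp); grey bars are the called peak, triangles the summit, and coloured blocks E-boxes (red), CCAAT boxes (blue) and CHR (green). Blue blocks lie within 29 bp of the summit at CENPX, CENPA, PMF1, CENPK and SPC24, and red blocks within 17.5 bp at NSL1 and NUF2. CENPU and CENPP have neither near the summit, the nearest being 129 bp away at CENPU and 196 bp away at CENPP.

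The remaining 23 members had no peak. Among them, CENPB (25.1 kb), the checkpoint kinase gene BUB1B (30.1 kb) and MIS12 (47.1 kb) had a peak within 50 kb. The others were CENPC, CENPH, CENPI, CENPL, CENPN, CENPO, CENPQ and CENPW of the CCAN, NDC80, SPC25, KNL1, ZWINT and DSN1 of the KMN network, BUB1, BUB3, MAD2L1, TTK and ZW10 of the checkpoint, and CENPE and CENPJ. For 19 of the 23 the nearest peak was over 100 kb away, with a median of 278 kb over all 23, against 168 kb for the 15687 protein-coding genes without a peak on chromosomes that had peaks. CENPI on chromosome X was the farthest, at 8950 kb. A gene without a called peak may still be bound below the level that this library could detect.

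Other centromere and kinetochore genes were taken from a separate list of 41. Of these 8 had a peak (19.5%), against 21.4% of all protein-coding genes and 22.5% of genes of like length, a share near the background. Together with the members, 21 of 77 genes had a peak (27.3%). Of the 35 genes of the separate list with a promoter window 11 had a divergent start (31.4%), against 36.7% of the members. A peak lay over the window of 2 of these 11 (18.2%), beside 23.2% of all such genes. The same was so for 2 of the 24 without a divergent start (8.33%), beside 12.3%. Both counts are small, and the differences were not tested. HASPIN, the gene of a histone kinase that places the chromosomal passenger complex, had the highest value, 15.4-fold (10.6 to 21.7), 52 bp from an end of the gene, and the peak also overlapped ITGAE and P2RX5. SKA2, whose protein binds kinetochore microtubules, had peaks of 10.5-fold (8.07 to 13.3), 126 bp upstream of its start and 434 bp upstream of PRR11, and of 5.48-fold. CKAP5, a microtubule polymerase, had 9.64-fold (6.0 to 14.8), 10 bp upstream. BIRC5, the gene of survivin, had 3 peaks, of 5.16, 3.08 and 10.5-fold, the last 1990 bp outside the gene. CENPV, ITGB3BP, CLASP1 and MAD2L1BP also had a peak. None of the 7 genes for CENP-A loading, HJURP and MIS18A among them, had a peak, against 22.4% of genes of like length. Nor did the 5 cohesin protection genes (29.5% at like length) or the 3 genes of the corona group (23.9%). In groups this small the absences were not tested.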

How the data were processed

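The data were the called peaks of 1 NeuroD1 ChIP library from IMR-32 cells. Per the labels, the processing notes name BWA 0.7.17, MACS2 2.2.7 and build hg38, while the deposited peak names carry macs3. Which control and q cutoff were set is not given in the sources used here. The authors deposited for each peak its fold enrichment (a ratio) at the summit and its −log10 p and −log10 q. The deposited score is the −log10 q times a constant, and the last column of the authors, another score, equals fold enrichment over width in all 6183 rows. ChIP reads and background were solved with the Poisson tail from the fold enrichment and −log10 p, with a step of 0.98 per read found from 4116 peaks with a single solution; 99.98% of peaks lay within 0.05 reads of a whole number. The step, and the solution where there were several, were chosen for nearness to whole numbers, which favours this closeness. Only solutions with a background of at least 1 were considered. Tested on simulated data, 1000 peaks drawn at random from the list gave back 100% of reads. They were simulated with the same formula and step and solved with the same floor of background, so this checks the solving and not the model.

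Gene bodies and promoter windows were those of RefSeq GRCh38.p14, with 22198 windows for 15842 protein-coding genes and 34 windows for 30 members. CENPH, CENPL, CENPM, KNL1, BUB3 and TTK had no window. Peaks within 3 kb of 2 or more protein-coding genes counted for each. The members and lists were chosen with earlier results of these data known. Every member with a peak was named, members without were named with their distance where under 50 kb, and genes of the other list were named with values where above the median fold enrichment. The divergent starts and the count of peaks over windows were added after the data were seen. Alternatives were other distances, −log10 q or fold enrichment of at least 5, the summit, the nearest gene, starts, length classes and a shorter window. No test was run, since there was 1 library. Scripts ran in Python 3.11.15 with scipy 1.17.1, pandas 2.3.3 and numpy 2.4.6, and figures were drawn in matplotlib 3.10.9.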

Additional observations from a re-analysis of the deposited data

How the results depend on the processing

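Peaks were found at 13 members, and at 9 to 13 in every alternative run. The count was 12 with the gene body alone (without SPC24, against 16.0% of protein-coding genes) or with a fold enrichment of at least 5 (without CENPP, against 19.7%). It was 11 with a −log10 q of at least 5 (without CENPP and CENPT, against 17.2%), and 13 with 1 kb (20.1%), 10 kb (25.1%) or the summit (21.3%). With a peak within 1 kb of a start it was 10 of 30 (33.3%, against 15.6% of protein-coding genes). The share of genes of like length was 22.8% with 20 classes and 23% with the 500 genes nearest in length. Over all 17 member peaks the median fold enrichment was 6.36 in place of 7.23, which turns its order against the 6.79 of all peaks. The count of other kinetochore genes, 8, was 5 with a peak within 1 kb of a start and 4 with a peak over the promoter window, chosen after the data were seen, both of 35 genes with a window. An E-box was present in a window of 17 of 30 members, and of 10 in the 150 bases before the start, as the shorter window makes possible. Counted by window, it was in 58.8% of member windows, against 65.1% of all protein-coding windows. In the 150 bases it was in 32.4%, against 40.2%. The CENPU peak ranked 103 by ChIP reads. No paired analysis was possible because only 1 ChIP library exists in the series, and no value has a replicate check. With few reads at most summits, the order of the peaks is weakly resolved.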

Other observations

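The CHR, spelled TTTGAA or TTCAAA on the other strand, is an element of mitotic gene promoters. It was found in 13 of the 34 member windows (38.2%), against 12.4% of all protein-coding windows. It was in 2 of the 9 member windows with a peak, at CENPA and NUF2, and in 11 of the 25 without (44.0%). Over all protein-coding windows it was in 7.78% of those with a peak and 13.0% of those without. Among members without a peak it was found at BUB1B, CENPC, CENPN, CENPO, MAD2L1, NDC80, SPC25, ZW10 and ZWINT, and at CENPF, whose peak lies outside the promoter. The CCAAT box was in 20 of the 34 member windows (58.8%), against 34.7% of all. It was in 6 of the 9 member windows with a peak (66.7%) and in 14 of the 25 without (56.0%). At CENPF 4 CCAAT boxes lay in a window without a peak. The windows of ZWINT overlap each other, so the same word was counted in both, and the difference between members with and without a peak was not tested.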
